A study of Homo sapiens with 16 samples.

Results

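Chromatin around the 5 genes of EPGN, EREG, AREG, BTC and HBEGF was followed by ATAC-seq, which cuts and tags accessible DNA with a transposase. These genes encode epigen, epiregulin, amphiregulin, betacellulin and heparin-binding EGF-like growth factor, which are ligands of the EGF family. The regions described were all peaks that overlap a 590 kb window on chromosome 4 (chr4:75150000-75740000, hg19), which spans EPGN, EREG, AREG and BTC, or a 120 kb window on chromosome 5 (chr5:139660000-139780000), which spans HBEGF. Overlapping peaks were merged into regions, separately for libraries of paired and of single reads. The windows held 64 of 153040 paired-end regions, 49 on chromosome 4 and 15 on chromosome 5, and 53 of 103322 single-end regions, 38 and 15.

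EGF-family ligands are made as membrane-anchored precursors, and metalloproteases of the ADAM family cut them free to bind EGFR and, for some of them, ERBB4 on the same or neighbouring cells. The bound receptors signal through Ras and the MAP kinases, whose output includes AP-1, the family of transcription factors to which JUN proteins belong. Amphiregulin and epiregulin are known as secreted products of senescent fibroblasts.

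All 16 libraries came from IMR-90 ER:Ras cells, an established line of human lung fibroblasts with an oncogenic Ras fused to the oestrogen receptor, so that 4-hydroxytamoxifen (4-OHT) switches Ras on. The groups were senescent cells with siRNA against FOXF1 and FOXF2 (siFOXF1/2, 2 paired-end libraries), with siRNA against JUN-family members (2 paired-end), with siRNA against the acetyltransferases p300 and CBP (sip300/CBP, 2 single-end) and with siRNA against the NF-kB subunit p65 (sip65, 2 single-end). Senescent cells with control siRNA (Sen, 4 paired-end and 2 single-end libraries) were their reference and were themselves set against proliferating cells with control siRNA (Pro, 2 paired-end). Every group except Pro had received 100 nM 4-OHT for 6 days, and Pro had received none. The JUN libraries are titled cJUN/JUND while their treatment label also names JUNB, and the cell type label of the Pro libraries reads as that of senescent cells. Replicates are not described as separate cultures, and their spread may be technical. Peak lists show neither knockdown efficiency nor fibroblast markers, and neither was checked.

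The paired-end lists held 60199 to 108323 peaks, with 29 to 50 of them in the windows, and the single-end lists 17899 to 71181, with 10 to 38. A level below is the summit pileup of a library's strongest peak in a region divided by that library's genome-wide background. To be listed over genome-wide background alone, a peak had to reach 4.58 to 6.31 times background in the paired-end libraries and 14.7 to 25.7 times in the single-end ones, and more where the local background was higher. A missing peak is therefore not closed chromatin. For a library without a peak, the level needed for listing was estimated with the highest local background among the libraries that had one. At the regions called opened or closed below it came to 6.46 to 20.1 times background in the paired-end libraries and 22.7 to 56.4 in the single-end ones. The listing ratio is the lowest level among the libraries with a peak over the highest such estimate among those without. It is an estimate, since the local background of a library without a peak is not listed, and a ratio at or under 1 shows no difference in level. Peak names have the same style in Pro, siFOXF1/2 and the first 2 Sen replicates, and another in JUN-family knockdown and the last 2 Sen replicates.

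The starts of EREG and AREG lie 80.0 kb apart and differed in their peaks. A peak lay over the EREG start, position 75230859, in 11 of 16 libraries, including all 10 paired-end ones. No library had a peak over the AREG start at 75310853. The last peak before it ended 34.5 kb upstream and the first after it began 12.5 kb downstream, a stretch of 47.0 kb without a peak in any list. AREG has a near-identical copy in hg19, AREGB, which RefSeq lists as a synonym of AREG, so the missing peak is uncertain: how reads that map to both places were treated is not given in the sources used here, and its part was not tested. Other stretches of over 40 kb without a peak inside the chromosome 4 window measured 82.4 kb and 45.0 kb. The hg19 starts of EPGN, BTC and HBEGF were not at hand, so regions near them are given by position only.

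The promoters of EREG and AREG are shown because peaks were listed over the EREG start and none over the AREG start, where the absence is uncertain. No link between motifs and peaks was tested. The sequences are from RefSeq on GRCh38.p14, 250 bases before to 50 after the start, and both genes are on the plus strand. Capitals mark TATAAA in both and the CRE-type motif TGACGTCA in AREG.
EREG: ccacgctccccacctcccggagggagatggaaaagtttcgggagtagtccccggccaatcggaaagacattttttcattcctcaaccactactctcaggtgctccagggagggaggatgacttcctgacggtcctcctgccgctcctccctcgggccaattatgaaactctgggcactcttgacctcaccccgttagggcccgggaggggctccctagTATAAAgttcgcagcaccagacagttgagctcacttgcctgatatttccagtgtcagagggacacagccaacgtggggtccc
AREG: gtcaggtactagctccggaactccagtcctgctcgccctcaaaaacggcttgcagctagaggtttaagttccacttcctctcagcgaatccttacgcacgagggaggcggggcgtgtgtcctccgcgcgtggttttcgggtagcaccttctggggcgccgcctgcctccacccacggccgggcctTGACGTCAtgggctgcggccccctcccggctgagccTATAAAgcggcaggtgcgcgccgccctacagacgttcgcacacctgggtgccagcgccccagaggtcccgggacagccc

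Promoters of all 5 genes were searched on both strands for TATAAA, TGACGTCA, the AP-1 motif TGANTCA, the forkhead motif TGTTTAC and a 10-letter NF-kB motif. No match overlapped another. TATAAA began at position -29 in EPGN, -32 in EREG and -29 in AREG, and 11.5% of 35116 promoters of that length hold it. TGACGTCA began at -65 in AREG, against a share of 1.85% of all promoters. TGTTTAC began at -231 in BTC, with a share of 3.42%. The AP-1 and NF-kB motifs, held by 7.71% and 1.61% of promoters, matched none of these 5 windows. The GC content was 37.7% for EPGN, 57.7% for EREG, 66.3% for AREG, 63.0% for BTC and 75.0% for HBEGF, against a median of 58.7% over all promoters.

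Of the 64 paired-end regions, 6 lay upstream of the EREG start, 8 between the starts of EREG and AREG, 35 beyond the AREG start and 15 in the HBEGF window. All 10 libraries held 24 of them, 37.5%, against 24.8% of all regions. A single library held 8 of 64, 12.5%, against 16.9% of all. Of the 53 single-end regions, all 6 libraries held 5, 9.43%, against 12.0% of all, and 51 overlapped a paired-end one.

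**Figure D1:**
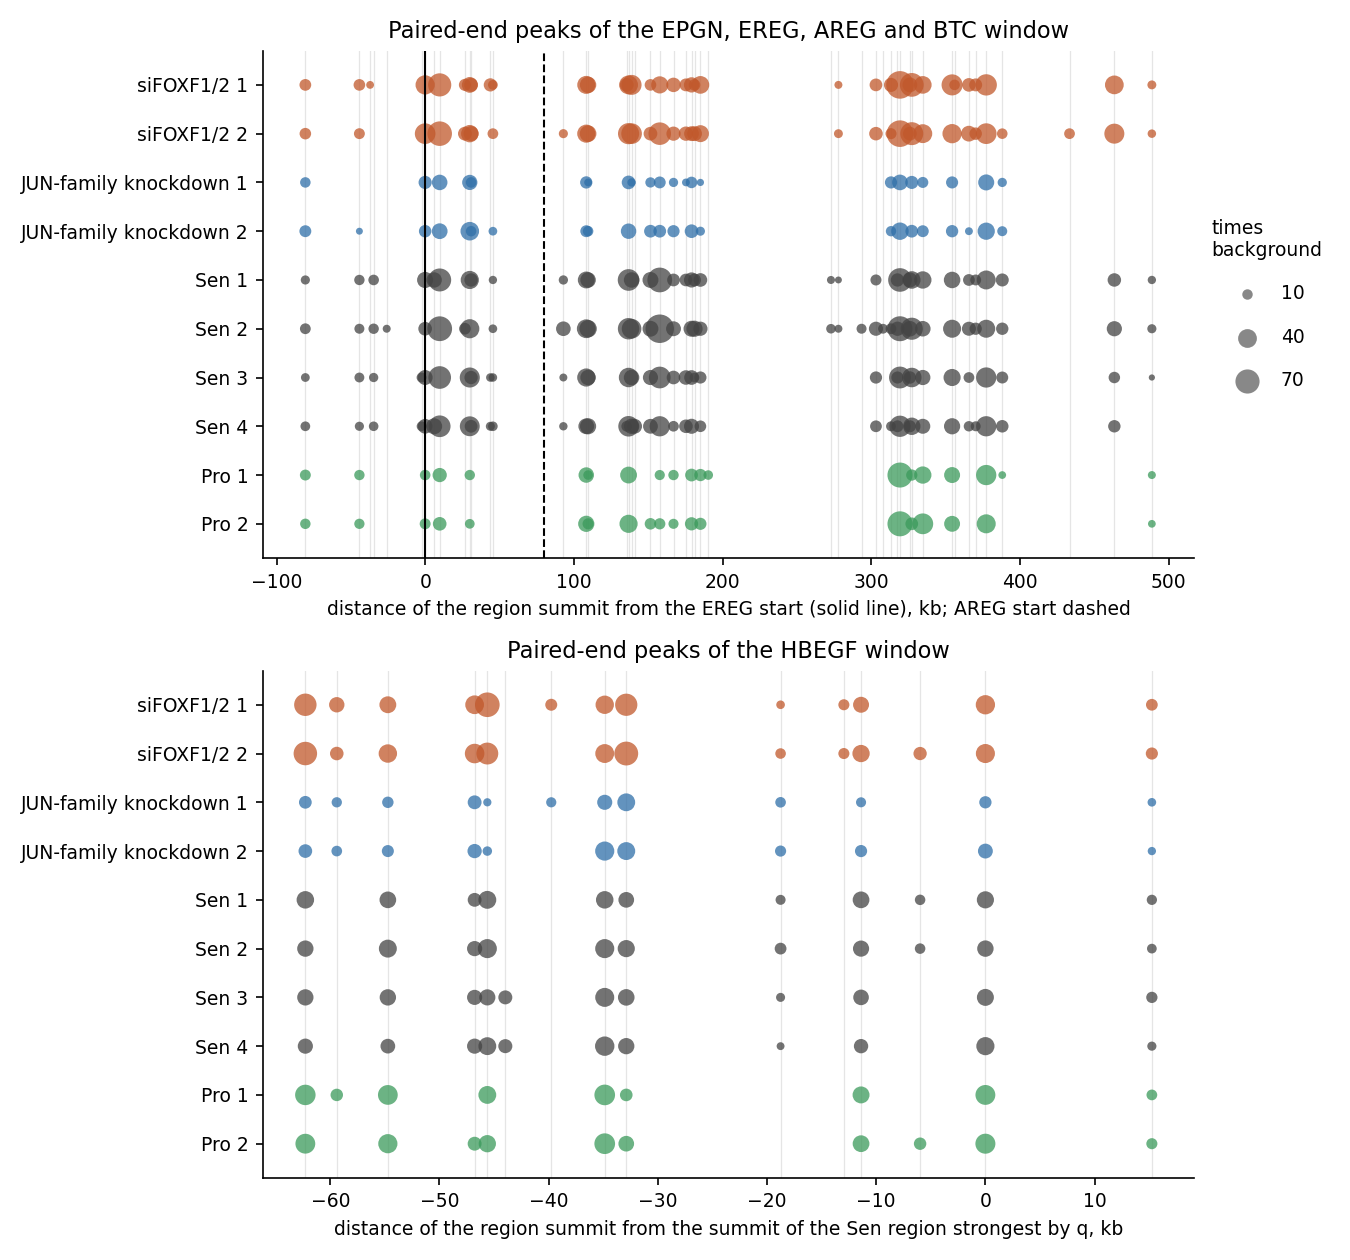
Each dot is a region with a peak in a paired-end library (rows), placed by distance in kb from the EREG start or, in the HBEGF window, from the summit of its strongest Sen region by −log10 q. Dot area is proportional to the summit pileup in times background, and no dot means no listed peak. The Pro rows hold 29 peaks each, and the AREG start lies in a stretch empty in every row. Its missing peak is uncertain because of the near-identical copy AREGB in hg19.

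The first question was which of these regions differ between senescent and proliferating cells. In every Sen library, 9 regions of the EPGN to BTC window and 1 of the HBEGF window carried peaks that no Pro library had. Together these were 15.6% of the 64 regions, close to the 13.0% of all regions. Of the 17 regions shared with Pro on chromosome 4, 12 were higher in Sen, beside 31.0% of all shared regions. The largest excess was 77.6 kb beyond the AREG start, at 5.51-fold. In the HBEGF window 3 of 8 shared regions were lower in Sen, beside 31.2% of all shared regions, and 5 of 8 on the unscaled background scale, beside 41.0%, with 1 higher on each scale.

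A region was called opened when every library of the first-named group and none of its reference held a peak, and closed in the reverse case. In Sen against Pro, 10 of 64 members were opened, 15.6%, beside 13.0% of all regions. Of the 38 members with a peak in every Sen library this was 26.3%, beside 26.1% of all such regions. None was closed, beside 1.48% of all regions and 3.96% of those held by both Pro libraries, and 2 were closed without Pro replicate 2. With lists of equal length, 5 were opened and 2 closed. Leaving out a library loosens the rule, so opened and closed counts can then only stay or rise. For such alternatives, here and below, shares over all regions were not computed. The windows held 47.5 ± 1.91 peaks in Sen (SD, n = 4) and 29 ± 0 in Pro (SD, n = 2), an exact two-sided permutation p of 0.133, the smallest that 4 against 2 libraries allow. Sen lists were longer as a whole: per 100000 peaks of a list the values were 46.9 ± 1.20 and 44.1 ± 0.484 (SD, n = 4 and 2).

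The opened region with the highest listing ratio, 2.35, was chr4:75533651-75534430, with 17.6, 28.8, 21.6 and 19.9 times background in Sen and no peak in Pro. At chr4:75369275-75370169, 58.7 kb beyond the AREG start, the levels were 34.4, 55.6, 34.7 and 33.9 in Sen with no peak in Pro. Local background there reached 7.83 times the genome-wide one, and the listing ratio was 1.69. At chr4:75694089-75694848, 383 kb beyond the AREG start, the levels were 26.2, 33.2, 19.0 and 22.2 in Sen with no peak in Pro, a listing ratio of 1.74. At these 3 places every Sen library stood above the level at which Pro was estimated to be listed. Of the 10 ratios 8 were above 1. The exceptions were 0.760 at chr4:75323359-75325153 and 0.976 at chr5:139717945-139718883, where Sen reached 14.5, 20.0, 11.8 and 8.96 times background.

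All libraries of Sen and Pro held 25 members. Since levels of all shared regions differed by a median log2 value of -0.18, differences are given relative to that median. Without overlap between the groups, 13 of the 25 were higher in Sen, beside 31.0% of all shared regions, and 3 were lower, beside 31.2%. The median member differed by +0.33. Of the 13, 12 lay among the 17 regions on chromosome 4, and all 3 lower ones lay in the HBEGF window. On the unscaled background scale 11 were higher, beside 22.4% of all shared regions, and 6 lower, beside 41.0%. Lower counts were 5 with Sen replicates 1 and 2 only, and 5 with 3 and 4 only.

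At chr4:75388001-75388993, among the strongest 3 of its window in Sen by −log10 q, levels were 88.2, 117, 68.0 and 58.8 times background in Sen, against 14.9 and 18.2 in Pro. The relative log2 difference of 2.46 stood at percentile 99.9 of all shared regions. At chr4:75240014-75241088, 9.58 kb beyond the EREG start, levels were 76.1, 88.4, 73.9 and 67.8 in Sen and 29.3 and 26.8 in Pro, a relative difference of 1.63. Neither pair of groups overlapped. Over the EREG start itself, at chr4:75230304-75231215, levels were 37.5, 26.8, 32.4 and 31.2 in Sen and 16.1 and 17.2 in Pro, a relative difference of 1.11. Picked after its values were seen, chr4:75260401-75261035, 29.8 kb beyond the EREG start, had 47.5, 52.8, 57.9 and 56.9 in Sen and 15.5 and 13.7 in Pro, a relative difference of 2.06. Not every strong region shared this: chr4:75549671-75550549 had 80.3, 89.6, 68.7 and 65.1 in Sen and 90.1 and 90.0 in Pro, a relative difference of -0.08 with overlapping groups after scaling.

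In the HBEGF window, chr5:139675010-139675469 was lower in Sen, with 44.1, 38.4, 38.3 and 33.1 times background, against 60.3 and 56.6 in Pro, a relative log2 difference of -0.43. At chr5:139737138-139737711, the Sen region of that window with the highest lowest −log10 q, levels were 42.4, 38.8, 41.5 and 47.5 in Sen and 56.8 and 57.6 in Pro, a relative difference of -0.25. The 1 member there that was higher in Sen was chr5:139703760-139704921, chosen after its values were seen, with 35.5, 42.4, 39.6 and 38.2 in Sen and 23.0 and 35.4 in Pro.

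**Figure D2:**
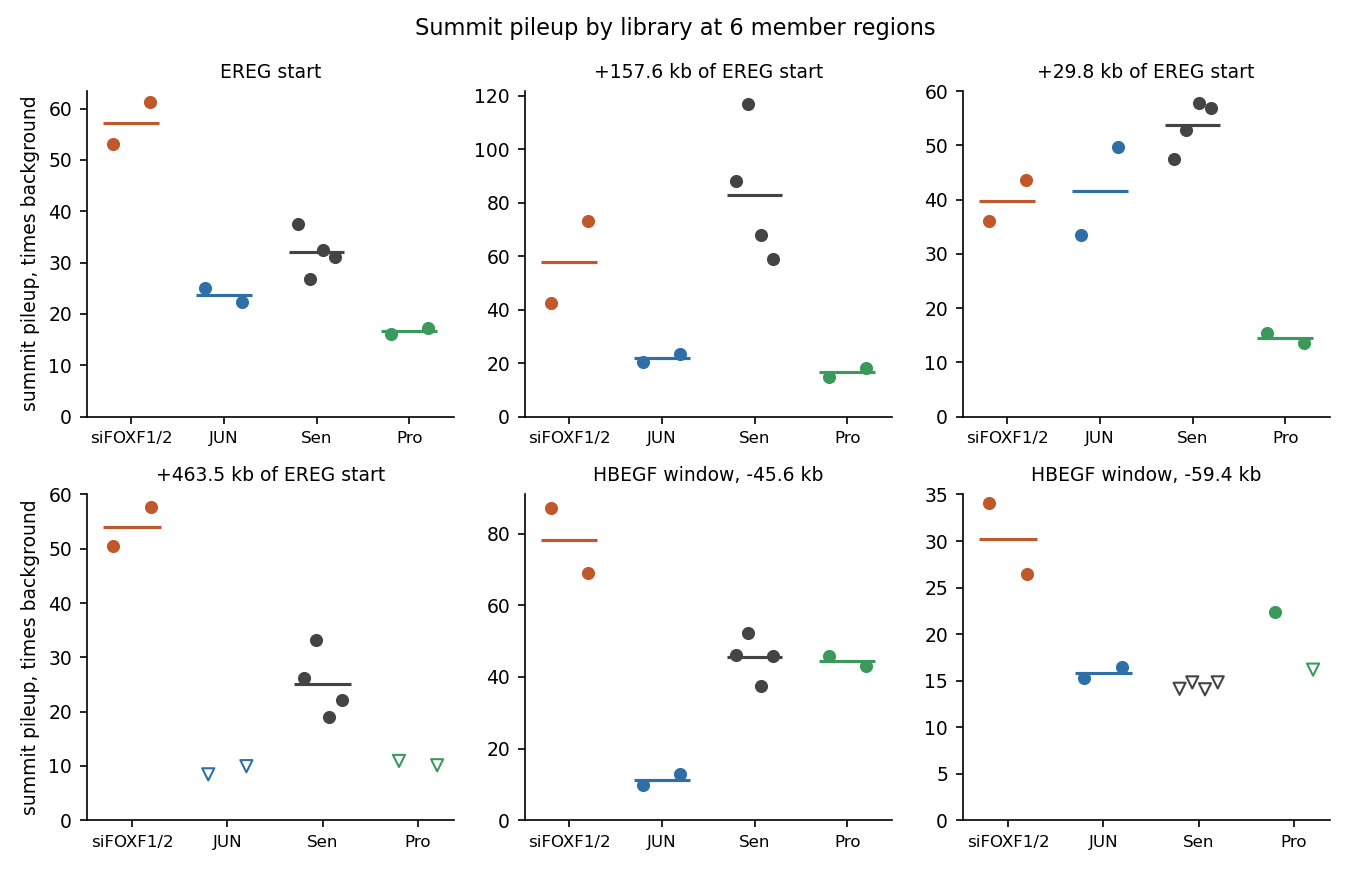
Summit pileup in times background (linear axis from 0) for each paired-end library at 6 regions, with lines at group means; JUN stands for JUN-family knockdown. Open triangles are libraries without a peak, drawn at the level estimated as needed for listing, and HBEGF distances are from that window's strongest Sen region by −log10 q. At +157.6 kb of the EREG start the 4 Sen libraries lie between 58.8 and 117 and the Pro libraries at 14.9 and 18.2.

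The second question was what knockdown of FOXF1 and FOXF2, forkhead transcription factors of lung and other mesenchyme, did in senescent cells. Both siFOXF1/2 libraries lacked a peak at 2 regions of the EPGN to BTC window where every Sen library had one. Both had a peak at 2 regions of the HBEGF window where no Sen library had one. Each count was 3.1% of the 64 regions, beside 4.04% of all regions for missing peaks and 5.77% for new ones. Over the EREG start the level was higher with siFOXF1/2. At 77.6 kb beyond the AREG start it was lower relative to the median shared region, while the unscaled values of the groups overlapped. The knockdown comparisons of paired-end libraries share the 4 Sen libraries with each other and with the comparison to Pro, so their values are given side by side and not as separate evidence.

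In siFOXF1/2 against Sen, 2 of 64 members were closed, beside 4.04% of all regions, and 2 were opened, beside 5.77%. These are 5.26% of the 38 members held by every Sen library, beside 8.10% of all such regions, and 4.55% of the 44 held by both siFOXF1/2 libraries, beside 9.70%. Without siFOXF1/2 replicate 2 the counts were 4 and 5. With Sen replicates 3 and 4 only, whose peak name style differs from that of siFOXF1/2, they were 4 and 4. The windows held 49 ± 1.41 peaks with siFOXF1/2 (SD, n = 2) and 47.5 ± 1.91 in Sen (SD, n = 4), an exact two-sided permutation p of 0.533. At chr4:75548374-75548746, 238 kb beyond the AREG start, no siFOXF1/2 library had a peak, against 25.5, 29.6, 21.3 and 20.3 times background in Sen, a listing ratio of 1.22. At chr4:75195688-75196219, 34.8 kb before the EREG start, Sen had 16.2, 15.6, 12.4 and 13.2, a ratio of 1.84. Both lay in the third of 10 bins of regions ordered by their weakest Sen peak, in which 14.5% of all regions were closed in siFOXF1/2. The presence pattern of the second region, a peak in the 4 Sen libraries alone, was shared by 3968 of 153040 regions, 2.59%.

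Both regions opened in siFOXF1/2 lay in the HBEGF window. At chr5:139677821-139678314 the levels were 34.1 and 26.5 times background with siFOXF1/2 and no Sen library had a peak, a listing ratio of 1.79. Pro replicate 1 had a peak there at 22.4, and Pro replicate 2 had none. At chr5:139724387-139724721 the levels were 17.6 and 17.7 with siFOXF1/2, without a peak in any other paired-end library, a ratio of 1.51.

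All 6 libraries held 34 members. The median over all shared regions was a log2 difference of +0.28, and relative to it 9 members were higher with siFOXF1/2, beside 21.8% of all shared regions, and 8 were lower, beside 21.2%. On the unscaled background scale 18 were higher, beside 46.1%, and 2 lower, beside 8.77%. The region over the EREG start had 53.2 and 61.3 times background with siFOXF1/2, against 37.5, 26.8, 32.4 and 31.2 in Sen, a relative difference of 0.57. The region 383 kb beyond the AREG start had 50.5 and 57.6 with siFOXF1/2, against 26.2, 33.2, 19.0 and 22.2 in Sen, a relative difference of 0.86. In the HBEGF window, chr5:139675010-139675469 had 72.3 and 79.4 with siFOXF1/2, against 44.1, 38.4, 38.3 and 33.1 in Sen, a relative difference of 0.71. These groups did not overlap.

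The region 77.6 kb beyond the AREG start had 42.5 and 73.2 times background with siFOXF1/2, against 88.2, 117, 68.0 and 58.8 in Sen. Its relative difference was -0.80, and the unscaled values overlapped. Against Sen replicates 1 and 2 it was -1.06 and against replicates 3 and 4 it was -0.54. At chr4:75240014-75241088 the levels of 77.3 and 86.7 with siFOXF1/2, against 76.1, 88.4, 73.9 and 67.8 in Sen, gave -0.17 on the relative scale and +0.10 on the unscaled one, so its direction depended on the scale.

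The third question was what JUN-family knockdown did. Peaks of every Sen library were missing from both knockdown libraries at 6 regions, all in the EPGN to BTC window and none in the HBEGF window. That was 15.8% of the 38 regions held by every Sen library, beside 31.6% of all such regions. The absence in the HBEGF window rests on requiring every Sen library. At chr5:139693414-139693597, picked after its values were seen, Sen replicates 3 and 4 had 28.1 and 28.4 times background. No other paired-end library had a peak there, and those replicates share the peak name style of the knockdown. In the HBEGF window 1 region had a peak in both knockdown libraries and in no Sen library. It was 1.56% of the 64, beside 1.99% of all regions. JUN-family libraries had lower levels at most shared regions of the genome, with a median log2 difference of -0.79, and the median member differed by -0.80 unscaled.

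In JUN-family knockdown against Sen, 6 of 64 members were closed, beside 15.8% of all regions. That is 15.8% of the 38 members held by every Sen library, beside 31.6% of all such regions. With lists of equal length 2 were closed. With Sen replicates 1 and 2 only, whose peak name style differs from that of the knockdown, 12 were. One member was opened, 3.23% of the 31 held by both JUN-family libraries, beside 5.91% of such regions and 1.99% of all, and 2 were opened without JUN-family replicate 2. With lists of equal length 5 were opened. The windows held 34.5 ± 0.707 peaks with the knockdown (SD, n = 2) and 47.5 ± 1.91 in Sen (SD, n = 4), an exact two-sided permutation p of 0.133, the smallest possible. The direction turned when counts were given per 100000 peaks of a list, 56.2 ± 0.515 with the knockdown and 46.9 ± 1.20 in Sen (SD, n = 2 and 4).

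The closed regions included chr4:75694089-75694848, with no peak in the knockdown and 26.2, 33.2, 19.0 and 22.2 times background in Sen, a listing ratio of 1.91. At chr4:75556677-75557058 Sen had 32.7, 35.2, 22.6 and 21.0, a ratio of 1.46. At chr4:75533651-75534430 Sen had 17.6, 28.8, 21.6 and 19.9, a ratio of 2.36. The other 3 were chr4:75548374-75548746, chr4:75195688-75196219 and chr4:75323359-75325153, with ratios of 1.20, 1.92 and 0.801. After scaling on shared regions the 6 ratios ran from 0.512 to 1.45, and 3 were above 1. The first of these regions was present in all Sen and siFOXF1/2 libraries and in no Pro or JUN-family library, a pattern of 8568 regions, 5.60% of all.

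The region opened in the knockdown was chr5:139677821-139678314, with 15.3 and 16.4 times background in the knockdown and no peak in Sen, a listing ratio of 1.03. Among the 28 members held by all 6 libraries, 8 were higher relative to the median region, beside 24.8% of all shared regions, and 6 were lower, beside 25.0%. These counts were 13 and 12 without JUN-family replicate 1, and lower ones were 10 without replicate 2. Unscaled, 1 was higher, beside 2.05% of all shared regions, and 21 were lower, beside 83.8%.

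The lowest relative value, -1.22, was at chr5:139691557-139692123 of the HBEGF window, with 9.74 and 12.9 times background in the knockdown and 46.2, 52.4, 37.6 and 46.0 in Sen. The region 77.6 kb beyond the AREG start followed with 20.5 and 23.4 in the knockdown, against 88.2, 117, 68.0 and 58.8 in Sen, a relative difference of -1.09 and an unscaled one of -1.87. Neither pair of groups overlapped on either scale. Over the EREG start the levels were 25.0 and 22.4 in the knockdown and 37.5, 26.8, 32.4 and 31.2 in Sen, -0.42 unscaled and +0.36 relative, with overlap after scaling. Higher relative values stood in the same window: chr5:139703760-139704921, picked after its values were seen, had 45.8 and 46.2 in the knockdown, against 35.5, 42.4, 39.6 and 38.2 in Sen, a relative difference of 1.03.

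**Figure D3:**
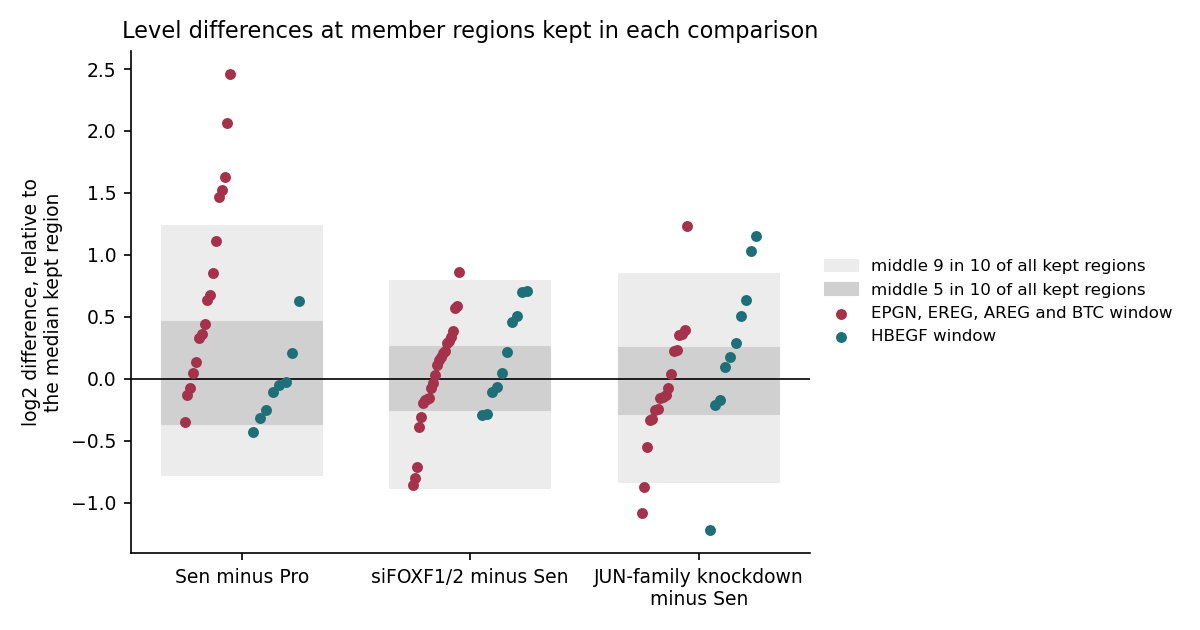
Each point is a member region held by every library of a comparison, with its log2 difference in level relative to the median of all such regions. Dark and light bands hold the middle 5 in 10 and the middle 9 in 10 of all shared regions. In Sen minus Pro 5 chromosome 4 members lie above the light band, the highest at 2.46, and in JUN-family knockdown minus Sen the lowest member, at -1.22, is in the HBEGF window.

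The fourth question was what depletion of p300/CBP or of p65 did, measured in shallower single-end libraries where weaker peaks go unlisted. The 7 regions held by both single-end Sen libraries and by neither sip300/CBP library all lay in the EPGN to BTC window. Another 2 regions, held by both sip300/CBP libraries and by no single-end Sen library, lay in the HBEGF window. These were 13.2% and 3.77% of the 53 regions, beside 7.65% and 5.16% of all regions. Of the regions held by both single-end Sen libraries, 8 had no peak in either sip65 library, 6 on chromosome 4 and 2 in the HBEGF window. Those 8 were 15.1% of the 53, beside 13.0% of all regions. Both knockdowns share the 2 single-end Sen libraries, and their values are side by side only.

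In sip300/CBP against Sen, 7 of 53 members were closed, beside 7.65% of all regions. Of the 24 members held by both Sen libraries this was 29.2%, beside 17.4% of all such regions. Most of the closed members had weak Sen peaks. In 10 bins ordered by the weakest Sen peak, weakest first, 2 of 3 members of the first bin were closed, beside 36.9% of its regions. In the second it was 3 of 4, beside 29.9%, in the third 1 of 4, beside 27.6%, and in the fifth 1 of 1, beside 19.6%. The closed count was 11 without sip300/CBP replicate 1, 14 without Sen replicate 1 and 4 with lists of equal length. The windows held 27.5 ± 4.95 peaks with sip300/CBP and 33 ± 7.07 in Sen (SD, n = 2 each), an exact two-sided permutation p of 0.667, where 0.333 is the smallest possible. The closed regions included both single-end regions inside the paired-end one 77.6 kb beyond the AREG start. At chr4:75388107-75388381 Sen had 52.0 and 33.7 times background and neither sip300/CBP library had a peak, a listing ratio of 1.11. At chr4:75388478-75388711 Sen had 39.0 and 42.1, the highest of the 7 ratios at 1.29. At chr4:75369421-75369621 Sen had 52.0 and 44.2, a ratio of 1.17. Of the 7 ratios 3 were under 1, the lowest 0.778 at chr4:75411805-75412051, and after scaling on shared regions 1 was.

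The 2 regions opened in sip300/CBP, beside 5.16% of all regions, were chr5:139704465-139704708 with 71.9 and 64.7 times background in the knockdown, a listing ratio of 1.36, and chr5:139724365-139724539 with 75.7 and 40.9, a ratio of 0.857. They are 10.5% of the 19 members held by both sip300/CBP libraries, beside 13.1% of all such regions. The count was 6 without either sip300/CBP library and 5 without Sen replicate 2. The first region lies within chr5:139703760-139704921, which all 4 paired-end Sen libraries held at 35.5 to 42.4 times background, so its missing peak in Sen was not seen in that layout. The second region overlaps chr5:139724387-139724721, the paired-end region seen in both siFOXF1/2 libraries alone. Its single-end ratio of 0.857 shows no difference in level from Sen, though both ratios were above 1 after scaling on shared regions. Levels at the 13 members held by all 4 libraries were higher without overlap at 2, beside 23.2% of all shared regions, and lower at 3, beside 21.5%. Leaving out sip300/CBP replicate 1, sip300/CBP replicate 2 or Sen replicate 2 gave 4, 7 and 4 higher and 6, 5 and 7 lower. Unscaled, 4 were higher, beside 16.2%, and 1 lower, beside 5.52%.

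In sip65 against Sen, 8 of 53 members were closed, beside 13.0% of all regions, which is 33.3% of the 24 held by both Sen libraries, beside 29.6% of all such regions. The count was 18 without sip65 replicate 1, 19 without Sen replicate 1 and 0 with lists of equal length. sip65 replicate 2 is the shortest list, with 17899 peaks. The windows held 15.5 ± 7.78 peaks with sip65 and 33 ± 7.07 in Sen (SD, n = 2 each), an exact two-sided permutation p of 0.333, the smallest possible. At chr5:139702974-139703161 in the HBEGF window Sen had 86.7 and 46.3 times background, a listing ratio of 0.820. All 8 ratios were under 1, from 0.574 to 0.957, and 2 were above 1 after scaling on shared regions, so most of these missing peaks show no difference in level. One region, chr4:75149966-75150095, was opened, with 35.1 and 35.9 in sip65, a listing ratio of 1.35, beside 0.242% of all regions and 1.53% of those held by both sip65 libraries. It overlaps chr4:75148557-75150150, which all 10 paired-end libraries held, the 4 Sen ones at 11.1 to 16.8 times background. The count was 2 without sip65 replicate 2 and 3 without Sen replicate 2, and sip300/CBP replicate 2 also had a peak there, at 27.2.

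Of the 6 members held by all sip65 and Sen libraries, 1 was higher without overlap, beside 20.0% of all shared regions, and 1 lower, beside 19.9%. Leaving out sip65 replicate 1, sip65 replicate 2, Sen replicate 1 or Sen replicate 2 gave 2, 8, 4 and 2 higher and 2 lower in each case. Unscaled, 0 were higher, beside 10.6%, and 1 lower, beside 8.84%. The lower one was chr5:139675043-139675318 of the HBEGF window, with 31.9 and 35.9 times background in sip65, against 78.1 and 50.5 in Sen, a relative log2 difference of -0.88. With sip300/CBP the same region had 87.1 and 57.9.

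At the EREG start the single-end peaks were weak and scattered: chr4:75230509-75230654 had a peak at 44.3 in sip300/CBP replicate 2 and at 31.6 in Sen replicate 2, and chr4:75230837-75231105 one at 45.4 in sip300/CBP replicate 1. No sip65 library and not Sen replicate 1 had one there. At chr4:75240215-75240585, 9.57 kb beyond the EREG start, levels were 110 and 88.5 with sip300/CBP, 73.3 and no peak with sip65, and 86.7 and 67.3 in Sen.

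**Figure D4:**
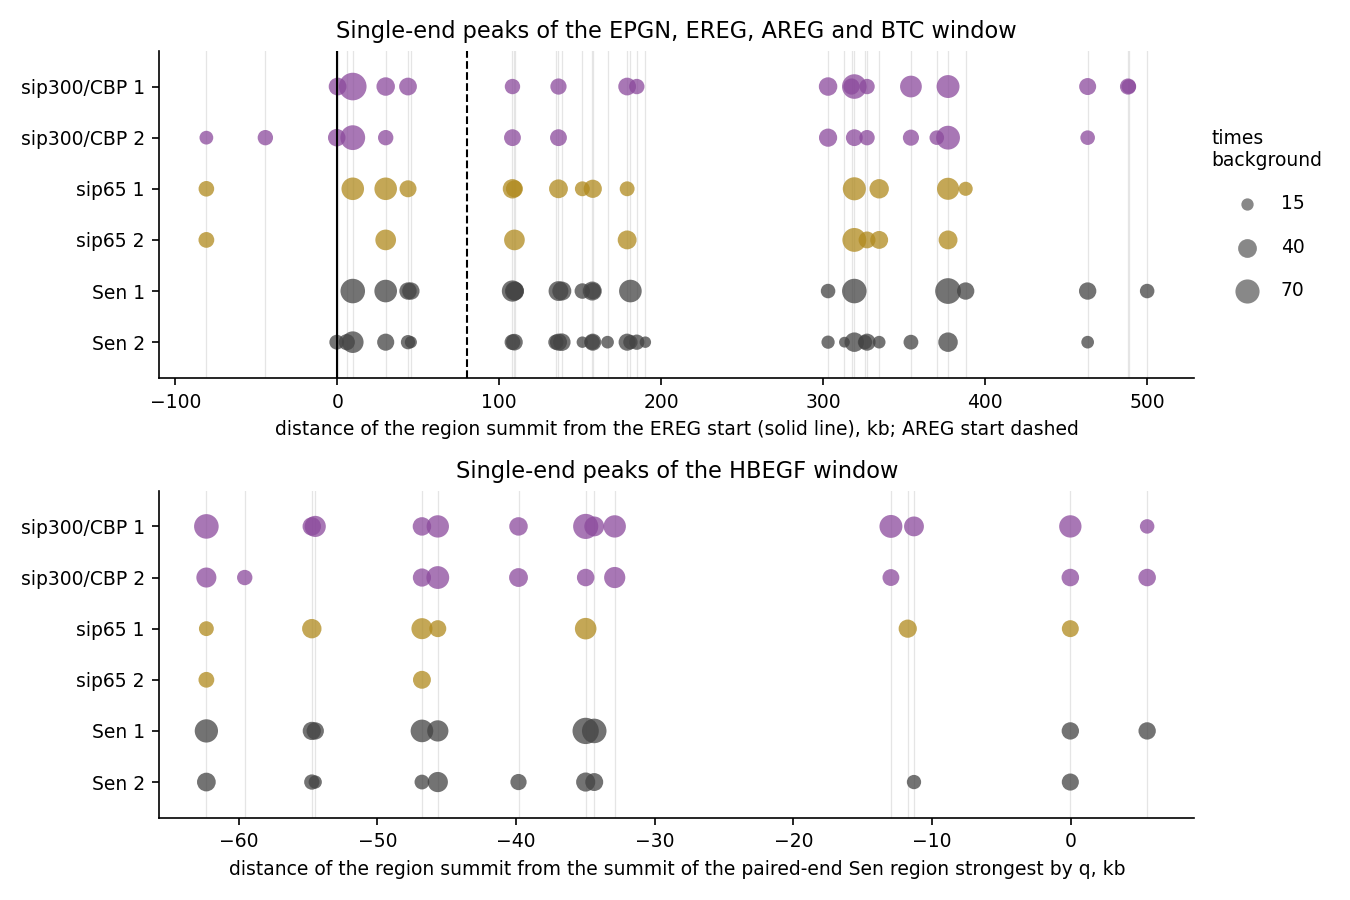
Each dot is a region with a peak in a single-end library (rows), placed as in the paired-end map, with dot area proportional to summit pileup in times background. The sip65 replicate 2 row holds 10 peaks, and 7 regions held by both Sen rows are empty in both sip300/CBP rows.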

How the data were processed

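ATAC-seq libraries were sequenced as 35 bp pairs or 75 bp single reads, per the labels' protocols. The submitters' processing notes name MACS2 2.1.1, Bowtie2 2.3.4.1, deepTools 3.1.1, SAMtools 1.9 and hg19, and give no settings as used here. Each deposited list, 1 per library, gives per peak the authors' fold enrichment ratio at the summit, the −log10 of the p-value and q-value, and a score, which was not used. Autosomal and X-chromosome peaks were merged where they overlapped by at least 1 bp, within a read layout.

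MACS2's equations for fold and Poisson p-value gave back a whole summit pileup for 100% of peaks, within 0.002 in −log10 p, widened in proportion above 10. For up to 2.42% of single-end peaks more than 1 whole pileup fitted. The 1st percentile of local background, 1.74 to 3.08 reads for pairs and 0.195 to 0.475 for single reads, served as genome-wide background. The floor was the fewest summit reads, 11 to 15 and 5 to 7, that attain a library's lowest listed p over that background. For libraries without a peak at a member region, the background was multiplied by the highest local over genome-wide background among those with one. No test was run on peak calls and levels, which are described beside the same counts over all regions. Peak numbers were compared by exact permutation over libraries.

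Named regions were those at or nearest the EREG and AREG starts, the 3 strongest in Sen per window, and up to 8 closed and 8 opened per comparison, ranked by their lowest −log10 q; others are marked in the text. Alternatives were −log10 q of at least 5, equal-length lists, 50% coverage, 500 bp summit windows, leaving out each library, subsets of Sen and, for peak numbers, a scale per 100000 peaks and a replicate block. Levels, listing ratios and their alternatives were added after seeing the data. The members and lists were chosen with earlier results of these data known. Loci of other EGF pathway genes were not analysed here, since no hg19 annotation was used. The functions were tested on simulated data. Python 3.11.15, pandas 2.3.3, NumPy 2.4.6, SciPy 1.17.1 and matplotlib 3.10.9 were used.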

Additional observations from a re-analysis of the deposited data

Results flagged for a closer look

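Among 17 sets of 4 Sen values examined, 2 had a library far from the other 3, where chance flags about 1 in 20. Both were paired-end Sen replicate 2. At chr4:75323359-75325153 its level was 30.8 times background, and the other Sen libraries ran from 9.16 to 12.4. At chr4:75369275-75370169 its level was 55.6 times background, and the others ran from 33.9 to 34.7. No cause was tested.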

How the results depend on the processing

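Of 229 values of the comparisons under an alternative, 173 were rated as unchanged, 54 as moved and 2 as reversed. Counts of regions were rated unchanged within 1.5 times, but differences in peak number by direction alone. Leaving out a library, such differences ran from 0.5 to 2.5 for siFOXF1/2, against 1.5 with all libraries. For sip300/CBP they ran from -10.5 to -0.5, against -5.5. With equal-length lists the closed and opened counts were 2 and 5 for Sen against Pro and 2 and 5 for JUN-family knockdown, 4 closed for sip300/CBP, and 0 and 2 for sip65. With 50% coverage 1 was closed for siFOXF1/2 and 2 were opened for sip65. With 500 bp summit windows 5 were closed and 0 opened for sip65. With Sen replicates 3 and 4 only, 4 were closed and 4 opened for siFOXF1/2, and with 1 and 2 only 12 were closed for JUN-family knockdown. In both cases the peak name style of these Sen replicates differs from that of the knockdown. Lower levels in Sen against Pro numbered 5 with Sen replicates 1 and 2 only and 5 with 3 and 4 only.

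On the unscaled background scale 6 were lower for Sen against Pro, 18 higher and 2 lower for siFOXF1/2, 1 higher and 21 lower for JUN-family knockdown, 4 higher and 1 lower for sip300/CBP and 0 higher for sip65. The difference at chr4:75240014-75241088 with siFOXF1/2 turned to +0.10. Per 100000 peaks the difference in peak number turned to -0.388 for siFOXF1/2 and 9.25 for JUN-family knockdown. The cause was not tested.

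Leaving out each library, closed counts ran from 0 to 2 for Sen against Pro, 2 to 4 for siFOXF1/2, 6 to 9 for JUN-family knockdown, 7 to 14 for sip300/CBP and 8 to 19 for sip65. Opened counts ran from 10 to 12, 2 to 5, 1 to 2, 3 to 6 and 1 to 3 in the same order. Since leaving out a library loosens the rule for a call, these counts could not fall. Shares over all regions were not computed beside them. Higher levels ran from 13 to 16, 10 to 12, 8 to 13, 3 to 7 and 2 to 8, and lower ones from 3 to 4, 8 to 10, 6 to 12, 4 to 7 and 2 to 2.

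Pairing was checked by replicate number alone: deviations of same-numbered libraries correlated at -0.08 to 0.16, with 2 pairs per comparison. For sip300/CBP and for sip65 both pairs gave the same value, so they are not separate checks. The number matched the JUN-family libraries to Sen replicates 1 and 2, whose peak name style differs, and their block difference below uses that match. A match to the last 2 Sen replicates, which share the style of the JUN-family libraries, was not tested. With a replicate block the differences in peak number were 19 for Sen against Pro, 1 for siFOXF1/2, -13.5 for JUN-family knockdown, -5.5 for sip300/CBP and -17.5 for sip65, with exact sign-flip p of 0.5 to 1. With 2 pairs such a p cannot go below 0.5, so the block can make no call, and it was run for peak numbers alone. Depth limits the single-end lists most, where a level under 14.7 to 25.7 times background is not listed.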
